A study of Mus musculus with 20 samples.

Results

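The genes described here are the mouse interferon response genes: the interferon receptors, the signal transducers of the STAT family, the interferon regulatory factors (IRFs) and the families of effector genes that interferons are known to induce. They were chosen by symbol alone, from the gene annotation deposited with the counts, and the rule uses no measured value, although the gene set was picked with earlier results of these data known. The rule found 70 protein-coding genes among 22109 protein-coding genes and 43432 genes in all. Another 3 symbols that fit the rule (Mx2, Gbp11 and Oas1b) were left out because the annotation does not class them as protein-coding. The 70 genes comprise 4 receptor subunits, 7 STATs, 8 IRFs, 3 Ifit genes, 7 Ifitm genes, 11 genes of the Oas family, 10 GTPases of the Gbp and Irgm families, 4 genes of the Ifi200 cluster, 8 other Ifi genes and 8 single effectors. The 7 Ifitm genes entered because their symbols begin with the same letters as Ifit, and Isg20l2 entered by its similar name. No library came from cells treated with an interferon, so "response" describes the genes by name and not a response measured here.

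RNA sequencing was made from 20 libraries of nude mouse cells, in 7 groups given by their cell type label. There are 5 malignant lines of 3 libraries each. C12 is labelled a transformed macrophage, from peritoneal wash cells kept in culture together with SU3, a glioma line. The ih_CTC line is also labelled a transformed macrophage and came from a peritoneal xenograft. The label of ih_DCTC is a transformed dendritic cell, from bone marrow dendritic cells cultured with SU3. The ih_BCTC line is labelled a transformed oligodendrocyte regrown from an SU3 tumour in the brain, and ih_STC_BM a transformed mesenchymal stem cell from a tumour in mice with damaged and rebuilt bone marrow. The series calls 2 further groups precursors: MDSC, labelled myeloid-derived immunosuppressive cells (3 libraries), and MSC, labelled bone marrow mesenchymal stem cells of normal mice (2 libraries). All groups were subcultured in the same serum-containing medium, and the protocol states monoclonal culture, so each line may stand for 1 clone. The labels give no age, and do not say that the libraries of a group came from separate animals or cultures, so p-values measure the spread between these libraries, which may be technical.

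Interferons are secreted proteins that warn cells of infection. Type I interferons bind the receptor of Ifnar1 and Ifnar2, interferon gamma binds that of Ifngr1 and Ifngr2, and both act through Janus kinases that phosphorylate STAT proteins. STAT2 and IRF9 belong to the complex that binds the interferon-stimulated response element (ISRE), and pairs of STAT proteins bind the gamma-activated site (GAS). The genes so induced include blockers of viral entry, RNA sensors and nucleases, and GTPases that attack vacuoles holding pathogens. Many are also expressed at rest in leukocytes.

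Library totals ran from 8794777 to 12400640 estimated counts, and levels below are counts scaled to library size (CPM). Summed levels of 8 pan-leukocyte markers were 5867 to 5939 CPM in MDSC and 2256 to 3339 CPM in MSC, but 1.95 to 21.9 CPM in the 15 line libraries, including those with macrophage and dendritic labels. The 11 macrophage markers measured summed to 27.3 to 192 CPM in the lines, 2109 to 2115 CPM in MDSC and 7788 to 9921 CPM in MSC. Markers of mesenchymal cells summed to 2651 to 11455 CPM in the lines, 4926 to 5523 CPM in MSC and about 24 CPM in MDSC (23.8 to 24.0). The 7 dendritic markers summed to at most 11.5 CPM in the ih_DCTC libraries. Oligodendrocyte markers summed to 9.16 to 11.1 CPM in ih_BCTC, with Olig2, Sox10 and Mog at 0 counts there. The MDSC libraries also held granulocyte markers (37198 to 39693 CPM), erythroid markers (11092 to 11394 CPM) and lymphocyte markers (1124 to 1180 CPM). The cell type names are therefore used as labels only. In bulk libraries of this kind, fewer cells of a type and less RNA per cell cannot be told apart. The share of reads in introns was 9.64% to 10.36% in MDSC, 2.07% and 3.09% in MSC, while the lines ran from 1.02% to 8.52%. It thus moved with the comparisons against MDSC. It also moved with those of ih_CTC (6.10% to 7.32%) and ih_BCTC (5.62% to 6.63%) against MSC. Its part in any single result was measured only by a fit with that share as a covariate and a fit without line libraries under 3%. Every MDSC library lay above every line library in intron share. The covariate fit therefore rests on differences within groups, and its values against MDSC extend beyond the shares seen in the lines. Counts of the MDSC libraries differed from each other by a chi-square of 1.72 to 3.32 per gene, more than sampling noise, whereas pairs within the other groups reached 25.6 to 283. The spread within MDSC is thus the smallest of the 7 groups.

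A part of the promoters held letters of the known interferon elements. RefSeq gave a window of 250 bases before the gene start for 55 of the 70 genes. The ISRE letters, GAAA and again GAAA after any 2 bases, searched on both strands with overlapping matches kept, were found in 21 of these 55 windows (38.2%), against 936 of 27025 genes with a window (3.46%). The GAS letters TTCNNNGAA were found in 12 of the 55 (21.8%), against 8.13% of all genes. The ISRE letters were present in all 6 GTPase windows, 4 of 8 Oas windows, 2 of 3 Ifit windows, 2 of 3 Ifi200 windows, 3 of 6 windows of single effectors, 2 of 6 STAT windows, 1 of 7 IRF windows, 1 of 7 Ifitm windows, and none of the 4 receptor or 5 other Ifi windows. A match is a run of letters and was not tested for binding. The stretches below, from RefSeq on GRCm38.p6, are shown as examples from 7 of the 21 genes, all of them Ifit genes, GTPases or single effectors described below, chosen after their values were seen and not by size of difference. They are printed 5′ to 3′ in the direction of the gene, with the ISRE letters in capitals. Capitals that begin with TTTC carry the letters on the other strand.
Isg15: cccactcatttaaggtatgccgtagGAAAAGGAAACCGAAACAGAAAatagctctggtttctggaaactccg
Ifit1: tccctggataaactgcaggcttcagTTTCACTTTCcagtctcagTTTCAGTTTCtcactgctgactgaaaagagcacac
Ifit3: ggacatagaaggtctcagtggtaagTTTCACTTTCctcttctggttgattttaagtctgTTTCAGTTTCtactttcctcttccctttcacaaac
Rsad2: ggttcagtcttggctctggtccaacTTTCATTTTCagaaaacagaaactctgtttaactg
Bst2: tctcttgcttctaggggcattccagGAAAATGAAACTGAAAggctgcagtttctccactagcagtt
Gbp5: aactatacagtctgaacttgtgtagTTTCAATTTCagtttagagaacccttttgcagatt
Irgm2: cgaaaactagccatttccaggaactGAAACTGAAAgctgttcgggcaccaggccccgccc

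The stretch of Isg15 lies at chr4:156200850-156200921 on the minus strand and holds 3 overlapping matches. That of Ifit1 lies at chr19:34640760-34640838 and that of Ifit3 at chr19:34583348-34583441, both on the plus strand with 2 matches each. The Rsad2 stretch is chr12:26456538-26456597 on the minus strand, and the Bst2 stretch, with 2 overlapping matches, is chr8:71537562-71537627 on the minus strand. The Gbp5 stretch is chr3:142496744-142496803 and the Irgm2 stretch chr11:58214888-58214947, both on the plus strand with 1 match. In the deposited annotation Irgm2 begins at 58199618, so its stretch lies before the RefSeq start but inside the deposited gene. Having the letters did not go with 1 direction of change. In C12 against MDSC the 21 genes with the letters that were tested had log2 fold changes from -8.44 to 1.45 (median -2.07), and the 31 tested genes with a window but without the letters ran from -10.26 to 1.79 (median -1.44).

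**Figure D1:**
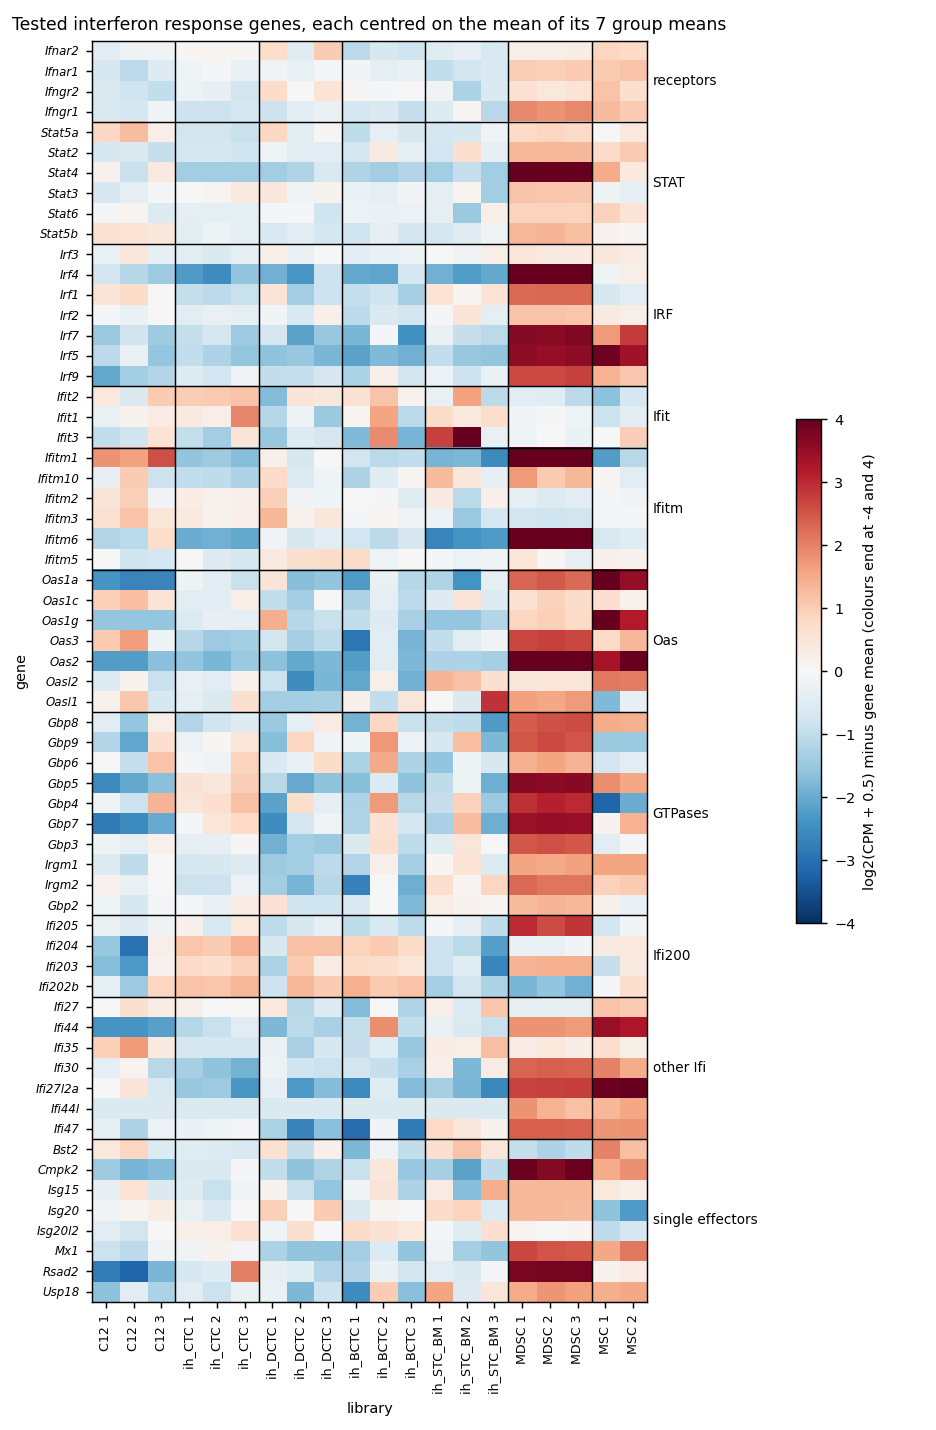
Each row is 1 of 62 of the 63 tested interferon response genes, grouped by role, and each column 1 of the 20 libraries. Colour gives log2(CPM + 0.5) minus the mean of the gene's 7 group means, with colours ending at -4 and 4. The MDSC columns hold the highest values for most rows, and 40 of the 63 genes had their highest group mean there.

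Of the 70 genes, 63 passed the filter on low counts and were tested. Among the 7 others were Ifitm7, Oas1d, Oas1e, Oas1f, Oas1h and Ifi27l2b. None of the 7 was above 0.721 CPM in any library, and Oas1d and Oas1f had 0 counts in all 20. Of the 63, Ifi44l (0 counts in all 15 line libraries) and Ifi205 (at most 0.856 CPM there) passed the filter only through precursor libraries. Both are kept in the counts below, where a level under MDSC followed from that filter. The highest of the 7 group means was in a precursor group for 51 of the 63 genes (81.0%), against 46.6% of all genes tested. It was in MDSC for 40 genes (63.5%, against 29.1%) and in MSC for 11 (17.5%, against 17.5%). It was in C12 for 5 genes, in ih_CTC for 3, in ih_BCTC for 2 and in ih_DCTC and ih_STC_BM for 1 each. For 21 of the 63 genes (33.3%) all 15 line libraries lay below all 5 precursor libraries, against 9.55% of the 15779 genes tested. For none did all 15 line libraries lie above, against 7.06% of all genes. Among the 21 genes were Ifnar1 and Ifngr1; Stat2 and Stat6; Irf4, Irf5, Irf7 and Irf9; Oas1a, Oas2, Gbp5, Gbp8, Irgm1 and Irgm2; and Ifi27l2a, Ifi30, Ifi44l, Ifi47, Cmpk2 and Mx1.

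Against MDSC, the genes called were mostly lower in the lines. In C12, 46 of the 63 were called (edgeR, adjusted p under 0.05), 4 higher and 42 lower, where 61.7% of all genes were called, 31.3% higher and 30.5% lower. In ih_CTC, 48 were called, 3 higher and 45 lower, against 55.3% of all genes called, 28.2% higher and 27.1% lower. In ih_DCTC, 46 were called, 3 higher and 43 lower, against 59.3% called, 31.2% higher and 28.1% lower. The share of members called in either direction (73.0%, 76.2% and 73.0%) was thus above that of all genes (61.7%, 55.3% and 59.3%). The share that was lower was further above its background. Median log2 fold changes of the 63 genes were -2.06, -2.25 and -2.38, beside 0.03, 0.08 and 0.09 over all genes. The tested genes with 0 counts in a line lie below these medians at their bounds as well. With intron share as a covariate, some calls of genes under the naming rule ended or reversed. There were 12 of 42 in C12, 5 of 43 in ih_CTC and 6 of 41 in ih_DCTC. These comparisons share the MDSC libraries. With the MDSC libraries summed to 1, some calls named below ended: Stat6, Oas3 and Ifi202b in C12, Stat3, Ifngr2, Gbp2 and Ifitm3 in ih_CTC, and Stat3 and Ifitm3 in ih_DCTC. Among these comparisons, the whole leukocyte marker list moved in the same direction, and its part in the counts was not tested.

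Against MSC the difference was smaller. In ih_STC_BM, the line labelled mesenchymal, 29 of 63 genes were called, 3 higher and 26 lower, against 32.1% of all genes called, 14.8% higher and 17.4% lower. That count was 16 when only ih_STC_BM and MSC were fitted, and the calls of Ifnar2, Ifngr1, Ifngr2, Gbp8 and Ifi30 were among those lost. In ih_BCTC, 37 were called, 3 higher and 34 lower, against 36.7% called, 15.9% higher and 20.8% lower. Against MSC, C12 had 29 called, 3 higher and 26 lower, where 33.1% of all genes were called, 14.7% higher and 18.4% lower. In ih_CTC there were 36 called, 5 higher and 31 lower, beside 34.6% of all genes (14.7% higher, 19.9% lower). In ih_DCTC there were 34, 3 higher and 31 lower, beside 34.1% of all genes called and 18.1% lower. With intron share as a covariate, 12 of 34 calls of genes under the naming rule ended or reversed in ih_CTC. In ih_BCTC 5 of 34 did so, and 0 in C12, ih_DCTC and ih_STC_BM. Median log2 fold changes of the members lay between -1.25 and -0.93 in these 5 comparisons, which share the MSC libraries. The pan-leukocyte and macrophage marker sums given above were also lower in every line library than in MSC, and their part in these counts was not tested. Between the precursors, 29 genes were called in MDSC against MSC, 24 higher and 5 lower, against 46.0% of all genes, 20.4% higher and 25.6% lower. That count was 17 without MSC 1, 16 without MSC 2 and 15 with the MDSC libraries summed, and 51 when only both groups were fitted. With intron share as a covariate it was 25, and 13 of 28 calls of genes under the naming rule ended or reversed.

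**Figure D2:**
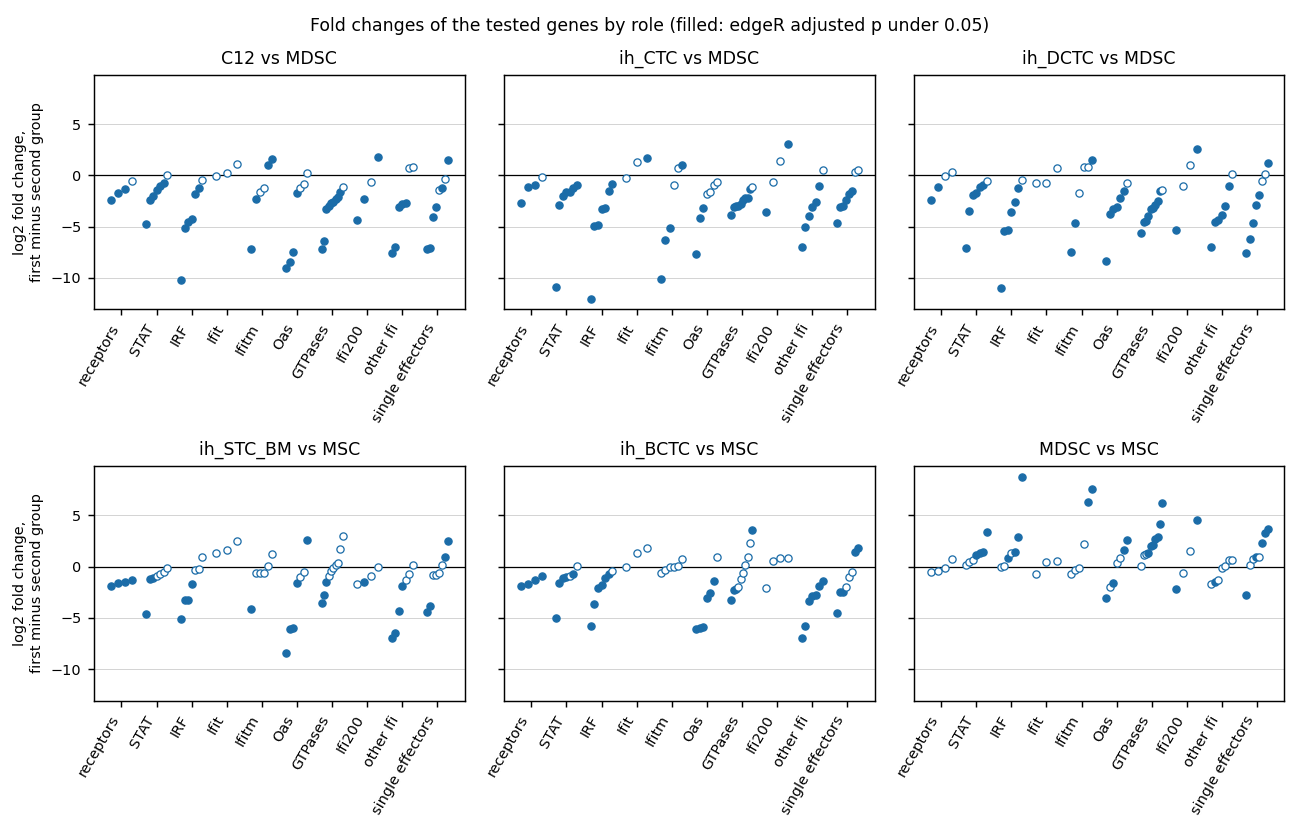
Each point is 1 tested gene, placed by role on the x axis and by its log2 fold change (first minus second group) on the y axis. Filled points have an edgeR adjusted p under 0.05. In the 3 panels against MDSC most filled points lie below 0, and in MDSC against MSC 24 of the 29 filled points lie above.

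Of the 4 receptor subunits, 3 were called lower than in MDSC in C12 and in ih_CTC and 2 in ih_DCTC. Of all genes, 30.5%, 27.1% and 28.1% were called lower there. All 4 subunits were called lower than in MSC in ih_STC_BM and ih_BCTC, beside 17.4% and 20.8% of all genes. The ih_BCTC call of Ifngr2 ended with intron share as a covariate. Ifnar1 encodes the first subunit of the type I receptor. Its level was 42.2, 32 and 46.5 CPM in C12. The ih_CTC libraries stood at 58.7, 65.0 and 54.0 CPM and those of ih_DCTC at 59.9, 53.7 and 63.8. It was 62.1, 51.9 and 55.7 CPM in ih_BCTC and 33.0, 39.6 and 43.3 in ih_STC_BM, beside 131, 130 and 136 in MDSC and 137 and 148 in MSC. No line library reached a precursor library. The log2 fold change was -1.72 (SE 0.20, adjusted p = 1.2e-06) in C12 and -1.16 (SE 0.20) in both ih_CTC and ih_DCTC against MDSC. It was -1.89 in ih_STC_BM (SE 0.21, adjusted p = 3.2e-06) and -1.34 in ih_BCTC against MSC, and no alternative ended any of these calls.

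Ifngr1, the subunit that binds interferon gamma, was 152 to 164 CPM in MDSC, 105 and 89.0 in MSC, while the 15 line libraries ran from 19.7 to 46.2. Its log2 fold changes against MDSC were -2.38 in C12, -2.68 in ih_CTC and -2.38 in ih_DCTC (SE 0.28 each). The partner subunits varied more. Ifngr2 was 97.1, 58.2 and 84.3 CPM in ih_DCTC, which overlapped the 78.2 to 85.7 CPM of MDSC, and 38.8, 32.9 and 29.2 CPM in C12 (log2 fold change -1.30 against MDSC, SE 0.28, adjusted p = 0.00064). Ifnar2 was not called against MDSC in C12, ih_CTC or ih_DCTC. It was lower than in MSC in ih_BCTC (43.8, 58.0 and 52.4 CPM against 166 and 159) and in ih_STC_BM (65.7, 72.8 and 60.1 CPM). Across the 5 lines Ifnar2 ranged from 43.8 CPM to 187 CPM in ih_DCTC 3, and a difference among the lines was called (adjusted p = 0.0067). Between MDSC and MSC no receptor subunit was called.

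**Figure D3:**
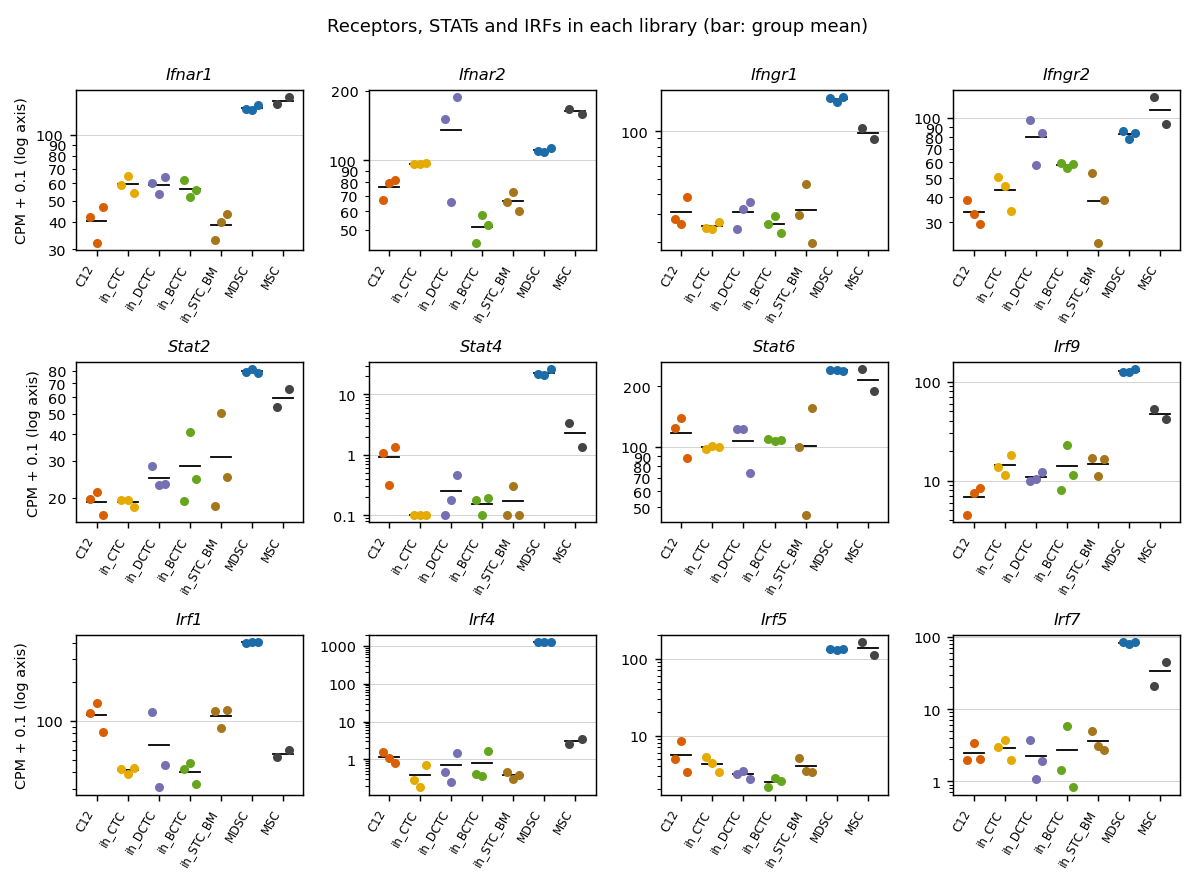
Levels of 12 receptor, STAT and IRF genes in each of the 20 libraries, as CPM + 0.1 on a log axis, by group on the x axis. Points are libraries and black bars group means. For Irf4 the MDSC libraries stand at 1248 to 1288 CPM, and all other libraries at most at 3.34 CPM.

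The STATs carry the signal from the receptor to the nucleus. Stat2, a part of the type I complex, was 78.4 to 81.0 CPM in MDSC and 16.5 to 28.3 in the libraries of C12, ih_CTC and ih_DCTC. Its log2 fold changes were -2.06, -2.07 and -1.68 (SE 0.33 each). Stat4, which acts below interleukin-12 and type I interferon in lymphocytes and myeloid cells, was 22.2, 20.7 and 25.9 CPM in MDSC and 3.23 and 1.23 in MSC. It had 0 counts in all 3 ih_CTC libraries, so it was at least 263-fold lower than in MDSC (against a floor of 3 counts over the group). In C12 it stood at 0.989, 0.219 and 1.25 CPM. That log2 fold change against MDSC was -4.76, and -2.33 without a call when intron share was a covariate. Stat3, Stat5a, Stat5b and Stat6, which mainly serve cytokines other than interferons, differed less. Against MDSC, Stat6 was lower in C12, ih_CTC and ih_DCTC (log2 fold changes -1.05, -1.28 and -1.18, SE 0.33), with 239 to 242 CPM in MDSC. Stat3 was lower in each too (-1.44, -0.93 and -0.93, SE 0.30), but with intron share as a covariate none of its 3 calls held. The ih_CTC call of Stat3 also ended without ih_CTC 1 (-0.85) and the ih_DCTC call without ih_DCTC 2 (-0.79). Stat5a levels in C12 (45.4, 60.7 and 30.9 CPM) surrounded those in MDSC (43.9 to 46.5 CPM).

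IRFs are transcription factors of which some are themselves induced by interferon. Irf7, the main regulator of type I interferon genes, was 83.3, 80.3 and 85.1 CPM in MDSC and 20.7 and 45.3 in MSC. Its level was 1.87, 3.29 and 1.96 CPM in C12. The ih_CTC libraries stood at 2.88, 3.67 and 1.88 CPM and those of ih_DCTC at 3.61, 0.978 and 1.81. It was 1.35, 5.68 and 0.723 CPM in ih_BCTC and 4.93, 2.94 and 2.64 in ih_STC_BM. The gap between the highest line library and the lowest precursor library was therefore from 5.68 to 20.7 CPM. The log2 fold changes were -5.13 (SE 0.65, adjusted p = 3.8e-06), -4.87 and -5.31 against MDSC, and -3.23 in ih_STC_BM and -3.67 in ih_BCTC (SE 0.64) against MSC.

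Irf9, the DNA-binding part of the ISRE complex, was 126, 125 and 133 CPM in MDSC and 52.5 and 41.9 in MSC. In the lines it ran from 4.40 CPM in C12 1 to 22.7 CPM in ih_BCTC 2. Against MDSC its log2 fold change was -4.24 in C12 (SE 0.38, adjusted p = 5.4e-08), -3.15 in ih_CTC and -3.58 in ih_DCTC. Irf5, which acts below Toll-like receptors, was high in both precursors (127 to 132 CPM in MDSC, 165 and 112 in MSC) and 2.03 to 8.44 CPM in the lines. Irf5 had log2 fold changes of -4.57 to -5.42 against MDSC and -5.15 (ih_STC_BM) and -5.84 (ih_BCTC) against MSC. The calls of Irf5, Irf7 and Irf9 in these 5 comparisons held under every alternative run.

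Irf4, known from lymphocytes and from dendritic and alternatively activated myeloid cells, had the widest range. It was 1288, 1285 and 1248 CPM in MDSC, 2.40 and 3.34 in MSC, while the lines ran from 0.0816 to 1.54. The log2 fold change was -10.26 in C12, -12.04 in ih_CTC and -10.96 in ih_DCTC (SE 0.76, 0.83 and 0.78), and 8.79 (SE 0.85) in MDSC against MSC. The dendritic gene Cd83 (628 ± 9.66 CPM, SD, n = 3) was also high in MDSC, and its part in the Irf4 level was not tested. Irf1, an early target of interferon gamma, was 398, 405 and 401 CPM in MDSC but 52.3 and 59.0 in MSC. It was 116, 136 and 81.1 CPM in C12 and 119, 87.2 and 120 in ih_STC_BM, above MSC in each library, with log2 fold changes that were not called (1 and 0.97, adjusted p = 0.072 and 0.081). Irf1 thus set MDSC apart from all other groups (2.85 against MSC, SE 0.45, adjusted p = 6.8e-05). Irf2, a repressor of the same sites, was 67.6 to 69.5 CPM in MDSC and 14.7 to 44.9 elsewhere, and was lower in C12, ih_CTC and ih_DCTC (log2 fold changes -1.23, -1.51 and -1.27, SE 0.26). The C12 call of Irf2 ended with intron share as a covariate (-0.70). Irf3, which is present at rest in most cells and activated by phosphorylation, had the narrowest range of the tested IRFs, from 28.6 to 60.4 CPM. It was lower in ih_CTC than in MDSC (-0.89, SE 0.23, adjusted p = 0.0037).

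The Ifit genes did not follow the regulators. They encode proteins that bind foreign RNA ends and block its translation, and lie together on chromosome 19 (34550694 to 34650009 in the deposited annotation). Ifit2 was 13.7, 13.6 and 8.95 CPM in MDSC and 5.83 and 11.9 in MSC. Its level was 38.1, 39.6 and 42.6 CPM in ih_CTC, all above the precursor libraries, with a log2 fold change of 1.73 against MDSC (SE 0.64, adjusted p = 0.029). That call ended when ih_CTC 2, ih_CTC 3, MDSC 1, MDSC 2 or MDSC 3 was left out (values 1.74, 1.69, 1.83, 1.82 and 1.55). The ih_BCTC libraries, at 28.8, 42.4 and 21.4 CPM, were also above all precursor libraries, without a call against MSC (1.80, adjusted p = 0.067). C12 (25.9, 12.5 and 38.8 CPM), ih_DCTC (5.35, 28.1 and 26.4) and ih_STC_BM (15.5, 58.7 and 8.95) overlapped the precursors. Ifit1 was 6.82 to 7.57 CPM in MDSC and 2.45 to 31.6 in the lines, the highest value being in ih_CTC 3. Ifit3 was 40.0 and 99.8 CPM in ih_STC_BM 1 and 2, but 4.40 in ih_STC_BM 3, beside 4.47 to 5.65 in MDSC. None of the 3 Ifit genes was called in C12 or ih_DCTC against MDSC, or in ih_STC_BM or ih_BCTC against MSC. Against MSC, ih_CTC had Ifit1 (1.83, SE 0.68, adjusted p = 0.046) and Ifit2 (2.18, SE 0.76, adjusted p = 0.033) called higher. Both calls ended with intron share as a covariate (1.80 and 0.58). The Ifit1 call ended without ih_CTC 3 (1.05), MSC 1 (1.63) or MSC 2 (2.07), and the Ifit2 call without any 1 of ih_CTC 1, 2 and 3 (2.21, 2.19 and 2.13) or of MSC 1 and 2 (1.76 and 2.78). Ifit1 and Ifit3 had estimated counts that were not whole, from reads shared with similar sequences, so their values are less certain.

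The Ifitm genes, which encode small membrane proteins that hold back the entry of enveloped viruses, went in opposite directions. Per kilobase of exon, Ifitm3 had the highest level of the members in C12, ih_CTC, ih_DCTC, ih_BCTC and MSC and came next to Ifitm2 in ih_STC_BM, at 874 ± 217 CPM per kilobase in C12 and 311 ± 126 in ih_STC_BM (SD, n = 3 each). Its level was 531, 760 and 486 CPM in C12. The ih_CTC libraries stood at 445, 382 and 415 CPM and those of ih_DCTC at 862, 378 and 468, beside 208, 197 and 206 in MDSC. All of these line libraries were above MDSC. The log2 fold change was 1.54 in C12 (SE 0.32, adjusted p = 0.00057), 1.02 in ih_CTC and 1.48 in ih_DCTC. With intron share as a covariate these values were 0.28, 0.45 and 0.44 and were not called. Against MSC (328 and 336 CPM) Ifitm3 was not called in any line, with 325, 361 and 313 CPM in ih_BCTC.

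Ifitm2, at 150 to 166 CPM in MDSC and 103 to 424 in the lines, was called only in C12 against MDSC among the comparisons with a precursor (0.96, SE 0.37, adjusted p = 0.031). That call ended in 10 of its alternatives, among them those without C12 1 (0.96), without C12 2 (0.70) and without MDSC 1, 2 or 3 (0.98, 0.91 and 0.97), and the value turned to -0.78 with intron share as a covariate. Ifitm6 and Ifitm1 were high in MDSC. Ifitm6 was 319, 331 and 333 CPM there, 1.56 and 1.76 in MSC, while the lines ran from 0 to 4.62, with log2 fold changes of -7.19 to -10.08 against MDSC. Ifitm1 was 129, 132 and 133 CPM in MDSC, 21.4, 18.6 and 37.6 in C12. It was 1.63, 1.88 and 1.46 CPM in the libraries of ih_CTC, beside 0.833 and 2.46 in MSC. The C12 libraries were thus below MDSC (-2.34, SE 0.35) and above MSC (3.95, SE 0.47, adjusted p = 5.9e-06). The granulocyte markers were also highest in MDSC, and their part in the MDSC levels of Ifitm6 and Ifitm1 was not tested. Ifitm1 was also called higher than in MSC in ih_DCTC (6.72, 3.54 and 5.90 CPM). The granulocyte markers summed to 5.49 to 6.70 CPM in C12, 8.47 to 12.1 in ih_DCTC and 17.3 to 158 in MSC. Their part in these differences from MSC was not tested.

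The Oas family makes the second messenger that activates the antiviral nuclease RNase L. Its 11 members lie on chromosome 5, and 7 were tested. Oas2 was 55.7, 53.7 and 57.2 CPM in MDSC and 22.8 and 40.3 in MSC. In C12 it had 3 counts over all libraries, a level 574-fold lower than in MDSC (counting interval 196 to 2787). The other lines had 0 to 0.507 CPM, apart from 1.2 CPM in ih_BCTC 2. Log2 fold changes were -7.66 in ih_CTC and -8.35 in ih_DCTC against MDSC, and -6.00 in ih_STC_BM and -6.08 in ih_BCTC against MSC (SE 0.77 to 0.86). No alternative ended an Oas2 call. Oas1a was highest in MSC (89.8 and 35.5 CPM), next in MDSC (14.5 to 16.6) and 0 to 3.98 in the lines. Oas1g was 24.2 and 12.6 CPM in MSC, 2.02 to 2.28 in MDSC and 0 to 0.653 in the lines, apart from 3.49 in ih_DCTC 1. It had 0 counts in all 3 C12 libraries. Reads shared between Oas1a and Oas1g were split by the authors' counting, so the 2 genes are uncertain apart from each other.

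Oas3 was 73.3, 77.0 and 72.9 CPM in MDSC, 23.4, 36.1 and 9.48 in C12 and 3.75 to 6.47 in ih_CTC and ih_DCTC. Its log2 fold changes against MDSC were -1.70 in C12, -4.16 in ih_CTC and -3.83 in ih_DCTC (SE 0.52, 0.58 and 0.57). The Oasl genes, whose products resemble Oas, were less uniform. Oasl2 in ih_STC_BM (28.9, 25.2 and 17.5 CPM) lay above MDSC (15.5 to 15.7) and below MSC (49.2 and 47.2), with no call against MSC (-1.01). Oasl1 was called higher in ih_STC_BM than in MSC (2.55, SE 0.88, adjusted p = 0.035) on levels of 12.3, 7.91 and 93.0 CPM. Without ih_STC_BM 3, the library at 93.0 CPM, the value was 0.70 and not called. It was also not called without MSC 1 (1.97) or MSC 2 (3.53).

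The guanylate-binding proteins and the Irgm proteins are GTPases induced mainly by interferon gamma. In each of C12, ih_CTC and ih_DCTC, 9 of the 10 were lower than in MDSC and none was higher, beside 30.5%, 27.1% and 28.1% of all genes called lower. With intron share as a covariate, 5 of the 9 calls in C12 held, and 6 of the 9 in each of ih_CTC and ih_DCTC. Gbp5, which promotes inflammasome assembly, was 60, 58.2 and 58.9 CPM in MDSC and 16.8 and 13.4 in MSC. Its level was 0.330, 0.658 and 1.02 CPM in C12. The ih_CTC libraries stood at 6.73, 6.12 and 9.08 CPM and those of ih_DCTC at 1.74, 0.677 and 1.09. It was 0.976, 2.75 and 1.08 CPM in ih_BCTC and 1.85, 3.65 and 0.733 in ih_STC_BM. The line and precursor libraries did not overlap, and the ih_CTC libraries were the highest of the lines. The log2 fold change against MDSC was -6.40 in C12 (SE 0.59, adjusted p = 7.7e-08), -3.01 in ih_CTC and -5.68 in ih_DCTC. Against MSC it was -2.82 in ih_STC_BM and -3.23 in ih_BCTC (SE 0.53).

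Irgm1, which directs clearance of vacuoles by autophagy, was as high in MSC (51.3 and 51.4 CPM) as in MDSC (49.5 to 53.9), and 5.85 to 25.1 CPM in the lines. Its log2 fold changes were -2.07, -2.25 and -2.94 against MDSC. The C12 call ended with intron share as a covariate (-1.23). Gbp2 was 60.4 to 65.5 CPM in MDSC and 7.05 to 37.4 in the lines, lower in C12, ih_CTC and ih_DCTC (-1.62, -1.31 and -1.53). Gbp3 and Irgm2 were lower in those lines too, with log2 fold changes of -2.75 to -4.45 and of -2.31 to -3.95. The members of the chromosome 5 cluster (Gbp4, Gbp6, Gbp8 and Gbp9) varied between libraries of a line. Gbp9, for example, was 7.03, 3.51 and 26.3 CPM in C12 and 14.3, 55.2 and 14.0 in ih_BCTC, against 93.3 to 104 in MDSC. Gbp4 was 0.208 and 1.14 CPM in MSC and 2.25, 20.8 and 2.53 in ih_BCTC, where it was called higher than in MSC (3.6, SE 1.24, adjusted p = 0.030). That call ended without ih_BCTC 2 (1.77), without MSC 1 (2.89) and without MSC 2 (5.28). With intron share as a covariate, the calls of Gbp4 and Gbp9 against MDSC ended in all 3 lines, and the Gbp4 value in C12 was 0.28 in place of -2.64. Against MDSC the Gbp4 call also ended without C12 1 (-2.43), without C12 2 (-2.21) and, in ih_CTC, without any 1 of ih_CTC 1, 2 and 3 (-2.12, -2.20 and -2.50) or of MDSC 1, 2 and 3 (-2.31, -2.21 and -2.28). The Gbp9 call in ih_CTC ended without ih_CTC 1 (-2.29) or ih_CTC 2 (-2.40), and in ih_DCTC without ih_DCTC 1 (-2.13).

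The Ifi200 genes encode DNA sensors and nuclear regulators and lie side by side on chromosome 1 (173747293 to 174031810). Ifi202b was higher in C12, ih_CTC and ih_DCTC than in MDSC. It was 10.9, 13.0 and 10.3 CPM in MDSC, 30.6, 14.3 and 73.4 in C12. The ih_CTC libraries stood at 89.5, 87.2 and 102 CPM and those of ih_DCTC at 22.4, 101 and 80.9. Each of these line libraries was above each MDSC library. The log2 fold change was 3.03 in ih_CTC (SE 0.53, adjusted p = 0.00012), 2.57 in ih_DCTC and 1.79 in C12, the last not called without C12 3 (0.97). In MSC Ifi202b was 39.2 and 65.0 CPM, and in ih_BCTC 109, 83.3 and 88.2 (0.84, not called). It was 15.7, 23.9 and 16.4 CPM in ih_STC_BM, called lower than in MSC (-1.48, SE 0.55, adjusted p = 0.047). That call ended without ih_STC_BM 1 (-1.37), ih_STC_BM 3 (-1.35), MSC 1 (-1.80) or MSC 2 (-1.07), and also with no filter on low counts, with upper quartile scaling and when only both groups were fitted (-1.50, -1.41 and -1.46). Ifi204 was 45.7 to 72.9 CPM in ih_CTC and ih_BCTC, 22.1 to 25.4 in MDSC and 35.6 and 36.8 in MSC, with no call of a line against a precursor. Ifi204 was 9.34, 3.07 and 32.4 CPM in C12, which overlapped MDSC. In ih_STC_BM it was 15.2, 12.9 and 5.57 CPM, below both MSC libraries (log2 fold change -1.69, SE 0.65, adjusted p = 0.055). Ifi203 was 73.9 to 77.2 CPM in MDSC and lower in C12 alone of the 3 lines compared with it (-2.31, SE 0.65), a call that ended with intron share as a covariate (-0.08). Ifi203, Ifi204 and Ifi205 share reads, and their values are uncertain apart from each other.

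Among the other Ifi genes, Ifi30 and Ifi27l2a separated lines from precursors. Ifi30 encodes the lysosomal thiol reductase of antigen processing. It was 323, 334 and 329 CPM in MDSC, 256 and 178 in MSC, while the lines ran from 16.8 to 80.7. Log2 fold changes were -2.73, -3.98 and -2.96 against MDSC (SE 0.44, 0.47 and 0.45). Ifi27l2a was 30.0 to 31.8 CPM in MDSC, 70.0 and 79.9 in MSC, while the lines ran from 0.293 to 6.25, with log2 fold changes of -6.47 in ih_STC_BM and -5.80 in ih_BCTC against MSC. Ifi47, an Irgm-like GTPase, was 33.2 to 33.8 CPM in MDSC, 22.0 and 22.6 in MSC, while the lines ran from 0.300 to 11. Ifi44 was 28.3 and 23.9 CPM in MSC, 7.88 to 8.54 in MDSC and at most 1.60 in the lines apart from 8.78 in ih_BCTC 2. In C12 a single Ifi44 count was found, 256-fold lower than MDSC (counting interval 45.4 to 10150). Ifi44l and Mx1 are named after their values were seen. Ifi44l had 0 counts in all 15 line libraries and 1.17 to 2.10 CPM in the precursors, at least 12.6-fold lower in each line than in its precursor. As it passed the filter only through the precursors, its direction was fixed by that filter. Mx1, which blocks influenza virus replication, was 7.67 to 9.05 CPM in MDSC, 3.85 and 5.97 in MSC and at most 1.14 in the lines. Ifi27 and Ifi35 did not follow this order. Ifi27 was 46.3 to 46.8 CPM in MDSC, below all C12 and ih_CTC libraries (60.5 to 94.6), without a call. Ifi35 was 52.1, 87.1 and 34.9 CPM in C12 and 32.5 to 35.6 in MDSC (0.78, adjusted p = 0.072).

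**Figure D4:**
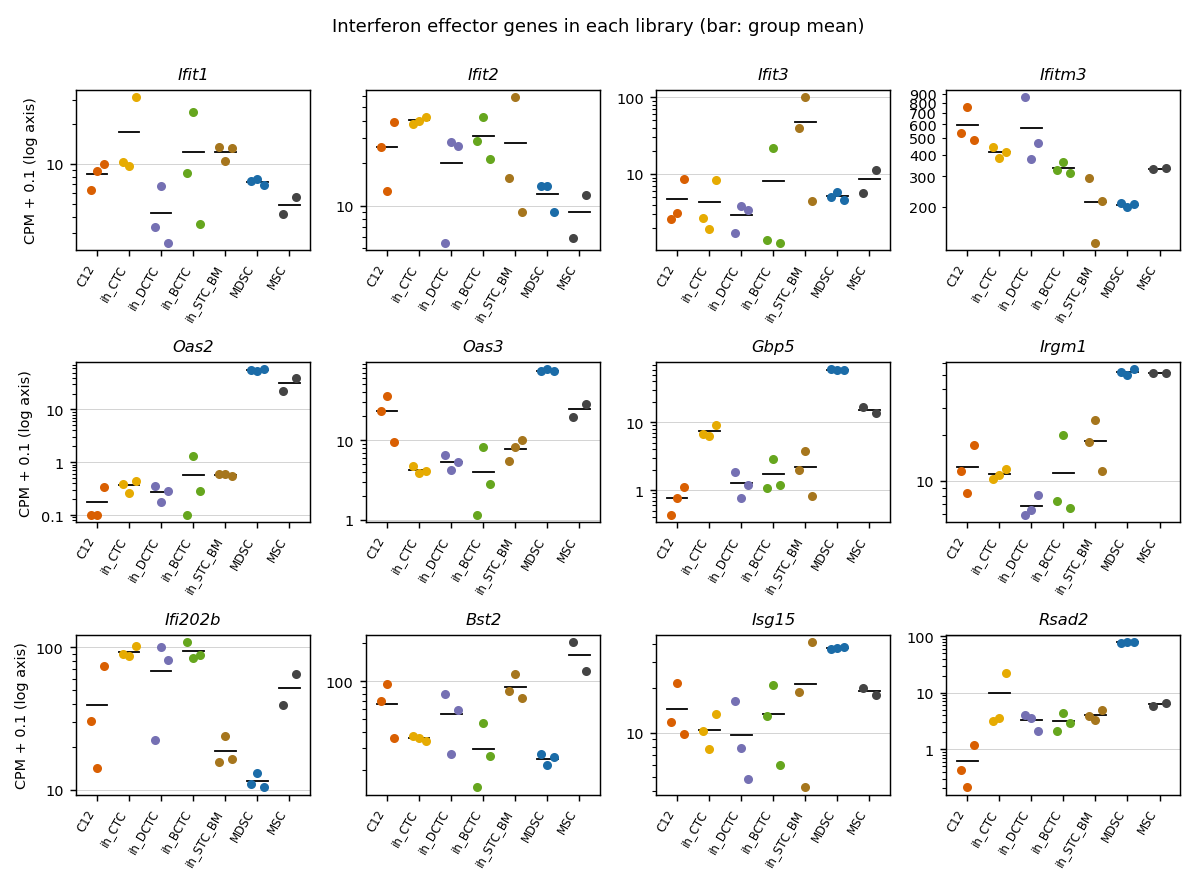
Levels of 12 effector genes in each of the 20 libraries, as CPM + 0.1 on a log axis, by group on the x axis. Points are libraries and black bars group means. Oas2, Gbp5 and Irgm1 were highest in the precursor libraries, whereas Ifitm3 in C12, ih_CTC and ih_DCTC (378 to 862 CPM) was above MDSC (197 to 208 CPM).

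Rsad2 and Cmpk2 are neighbours on chromosome 12 and are known to be induced together. Rsad2 encodes viperin. It was 77.6, 79.7 and 80.1 CPM in MDSC, 5.73 and 6.59 in MSC, and 0.330, 0.110 and 1.1 in C12. It was 3.08, 3.43 and 22.4 CPM in ih_CTC, 3.98, 3.54 and 2 in ih_DCTC, 1.95, 4.22 and 2.80 in ih_BCTC and 3.70, 3.24 and 4.84 in ih_STC_BM. The C12 libraries were the lowest and ih_CTC 3 stood above the rest of the lines. The log2 fold change against MDSC was -7.14 in C12 (SE 0.82, adjusted p = 1.0e-06), -3.03 in ih_CTC and -4.64 in ih_DCTC, while against MSC neither ih_STC_BM (-0.65) nor ih_BCTC (-1.04) was called. Cmpk2 was 27.5 to 32.9 CPM in MDSC, 5.62 and 7.38 in MSC, while the lines ran from 0 to 2.50, with log2 fold changes of -7.22, -4.69 and -6.18 against MDSC.

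Isg15 encodes a ubiquitin-like modifier. Its level was 36.8, 37.4 and 38.0 CPM in MDSC, 20 and 17.9 in MSC, 11.7, 21.5 and 9.64 in C12 and 18.6, 4.16 and 41.2 in ih_STC_BM. The ih_STC_BM libraries lay on both sides of MSC, and the comparison was not called (0.16, adjusted p = 0.90). Isg15 was lower than MDSC in ih_CTC (-1.85) and ih_DCTC (-1.97). These calls ended without ih_CTC 1 (-1.84), without ih_CTC 2 (-1.68) and without ih_DCTC 3 (-1.64). Bst2, tetherin, which holds budding virus on the cell surface, was 26.4, 21.6 and 25.1 CPM in MDSC but 204 and 120 in MSC. It was 69.8, 94.5 and 35.4 CPM in C12, 79.7, 26.7 and 59.6 in ih_DCTC, 14.5, 46.6 and 25.6 in ih_BCTC and 83.1, 113 and 73.0 in ih_STC_BM. The ih_BCTC libraries overlapped MDSC, the other lines lay above it, and every line library lay below both MSC libraries. C12 (1.45, SE 0.44, adjusted p = 0.0085) and ih_DCTC (1.18) were called higher than MDSC. Both calls ended with intron share as a covariate (0.95 and 0.79). That of ih_DCTC also ended without ih_DCTC 1 (0.82), without ih_DCTC 3 (1.12) and without MDSC 1, 2 or 3 (1.23, 1.09 and 1.2). Against MSC, Bst2 was lower in ih_BCTC (-2.49, SE 0.48, adjusted p = 0.00056), a call that held under every alternative.

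Isg20, an RNA exonuclease, was higher in all 5 lines than in MSC (8.12 and 5.00 CPM). It was 43.8, 49.1 and 17.5 CPM in ih_STC_BM (2.49, SE 0.44, adjusted p = 0.00034) and 17.1, 28.0 and 25.6 in ih_BCTC (1.84, SE 0.43). The second call ended without MSC 2 (1.53). Isg20 was 63.7 to 64.2 CPM in MDSC, above every line library. Isg20l2, a nucleolar relative that is not known as an interferon target, was also higher than in MSC in ih_BCTC (1.44, SE 0.35, adjusted p = 0.0033), a call that ended without MSC 1 (1.27).

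The lines differed among themselves in 30 of the 63 genes (33.2% of all genes were called), and in 18 when only the lines were fitted. C12 and ih_CTC, both labelled macrophage, differed in 18 genes, 9 higher and 9 lower in C12, against 16.5% of all genes, 9.60% higher and 6.90% lower. Without C12 1 that count was 11, and without C12 2 it was 10. Higher in C12 under every alternative were Ifitm1 (3.96, SE 0.40, adjusted p = 6.7e-06), Ifitm6 (2.89), Stat5a (1.65), Ifi35 (1.82) and Stat4, which had 0 counts in ih_CTC. Stat5a was 45.4, 60.7 and 30.9 CPM in C12 and 15.2, 15.1 and 13.4 in ih_CTC. Gbp5 was lower in C12 under every alternative (-3.39, SE 0.54, adjusted p = 0.00054), and Rsad2 was lower by -4.11 (SE 0.75, adjusted p = 0.0015), a call that ended without the line libraries of low intron share (-3.11). In C12 the 2 libraries of low intron share (2.52% and 1.02%) are C12 1 and C12 2. C12 3 (5.23%) was the nearest to the ih_CTC mean for Gbp2, Gbp5, Gbp7 and Gbp9. For Gbp3, Gbp6, Gbp8, Irgm1 and Irgm2, C12 1 or C12 2 was nearer. Gbp6, for example, was 9.56, 4.82 and 21.6 CPM in C12 and 9.23, 8.57 and 18.2 in ih_CTC. Gbp4 was 5.61, 3.07 and 16.2 CPM in C12 and 8.56, 9.88 and 14.2 in ih_CTC, with C12 3 above every ih_CTC library.

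Between ih_DCTC and ih_BCTC, lines with different labels, none of the 63 genes was called by edgeR and none of the 15779 genes tested (0%). At an unadjusted p under 0.05 there were 11 of the 63, DESeq2 called 2, and edgeR called 1 without ih_DCTC 2. The library ih_BCTC 2 stood apart within its group. It was the highest of the 3 ih_BCTC libraries for 45 of 62 members that had a highest library (72.6%), against 29.4% of all genes. Its Ifit1 level was 24.4 CPM beside 8.41 and 3.44, its Ifit3 level 21.7 beside 1.28 and 1.18, its Usp18 level 6.20 beside 0.0751 and 0.542 and its Ifi44 level 8.78 beside 0.826 and 0.814. Irf7 at 5.68 CPM was the highest of the ih_BCTC values too. The intron share of ih_BCTC 2 (5.79%) lay between those of the other ih_BCTC libraries (5.62% and 6.63%). The median log2 fold change of the members in ih_BCTC against MSC was -1.25 with and -1.67 without it. In ih_CTC 3, 36 of 61 members were highest (59.0%), against 41.6% of all genes. In ih_DCTC 1, 30 of 62 were highest (48.4%), against 34.0% of all genes. These counts are descriptions of single libraries without a test.

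**Figure D5:**
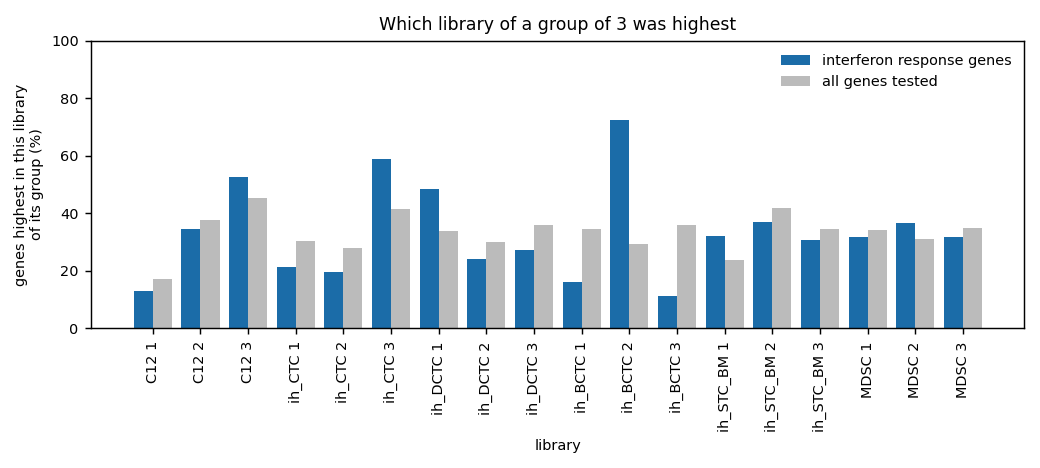
For each library of the groups of 3, the bars give the percent of genes whose highest level in the group was in that library, for the interferon response genes (blue) and for all genes tested (grey). ih_BCTC 2 has 72.6% of the members beside 29.4% of all genes.

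The other genes of the pathway, a list of 62 genes for ligands, kinases, inhibitors, sensors and further induced genes, were also mostly lower where called. Of these, 41 were tested. Against MDSC, 2 were higher and 29 lower in C12, 1 higher and 29 lower in ih_CTC, and none higher and 32 lower in ih_DCTC, beside 30.5%, 27.1% and 28.1% of all genes called lower. Against MSC, 2 were higher and 23 lower in ih_STC_BM and 3 higher and 25 lower in ih_BCTC, beside 17.4% and 20.8% called lower. Ligands were nearly absent: Ifng was 17.3 ± 1.23 CPM (SD, n = 3) in MDSC with 0 counts in every other group, and the highest group mean of another ligand was 0.333 CPM, for Ifnz in ih_CTC. The kinase Jak2 was 199 CPM in MDSC, 53.1 in MSC, while the lines ran from 14.3 to 29.1 (group means). Single libraries stood at 3.40 to 35.5 CPM in C12, 11.7 to 40.3 in ih_DCTC and 3.52 to 31.8 in ih_STC_BM. The log2 fold changes of Jak2 against MDSC were -3.62, -2.82 and -2.77 (SE 0.76, 0.74 and 0.73). Tyk2, the kinase bound to Ifnar1, was lower in C12, ih_CTC and ih_DCTC than in MDSC and in ih_STC_BM and ih_BCTC than in MSC, with log2 fold changes from -2.22 to -1.29. The induced gene Parp14 was lower in the same 5 comparisons, from -5.49 to -3.74. The feedback inhibitor Socs1 went the other way against MSC, with 22.6 CPM in ih_STC_BM and 19.4 in ih_BCTC against 3.11 in MSC (2.85 and 2.64, SE 0.66 and 0.65). So did the chemokine Cxcl10, which was 0.90 CPM in MSC, 18 in ih_STC_BM and 25.1 in ih_BCTC (4.26 and 4.75, SE 0.98 and 1), and 54.5 in ih_CTC against 8.97 in MDSC (2.60, SE 0.72, adjusted p = 0.0053). Its libraries ran from 2.23 to 39.3 CPM in ih_STC_BM and from 26.9 to 99.7 in ih_CTC. The alternatives were not run for single genes of this list.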

How the data were processed

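RNA was sequenced from 20 libraries in 7 groups. Estimated counts per gene were deposited by the authors without scaling, and STAR, RSEM 1.2.26 and DESeq2 are named in the submitters' processing notes. Which build the reads were aligned to is not given in the sources here. In the counts 8.37% of values were not whole, so counts were rounded. Other measures, among them the share of reads in introns as a percent, were taken from the quality table deposited by the authors. Groups came from the labels, which give no replicate numbers, so libraries were numbered in accession order.

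All 20 libraries were fitted together with edgeR 4.0.16 (R 4.3.3; quasi-likelihood test, TMM scaling, at least 10 counts by group and 15 in total, 13 residual degrees of freedom), with Benjamini-Hochberg adjustment over 15779 genes and a threshold of 0.05. Levels are TMM-scaled CPM. The code was tested on simulated data. Folds against a group with 0 counts use a floor of 3 counts over the group, and intervals (95%) cover counting error only. Alternatives were DESeq2 1.42.0, RLE and upper quartile scaling, no filter, only the compared groups, a log2 fold change above 1, intron share as a covariate, leaving out line libraries under 3% intron share, MDSC libraries summed, and each library left out. Promoter windows are RefSeq's (GRCm38.p6), and coordinates of genes are those of the deposited annotation.

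The members and lists were chosen with earlier results of these data known. The rule for named genes took all receptors, STATs and IRFs, and effectors with a mean of at least 10 CPM in 1 group (57 genes in all). Some genes are counted in the totals but not reported here by name.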

Additional observations from a re-analysis of the deposited data

Results flagged for a closer look

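The direct test between C12 and ih_CTC, both labelled transformed macrophages, called 18 of the 63 tested interferon response genes (edgeR, adjusted p under 0.05). Of all genes, 16.5% were called. Only 6 of the 18 calls held under every alternative. With intron share as a covariate 4 ended, those of Irf1, Irf9, Ifi204 and Ifi27l2a. The 18 differences are listed as log2 fold changes of C12 minus ih_CTC. Lower in C12 were Oas1g (-5.61), Oas1a (-5.28), Ifi44 (-4.51), Rsad2 (-4.11), Gbp7 (-4.04), Gbp5 (-3.39), Cmpk2 (-2.54), Ifi204 (-2.06) and Irf9 (-1.08). Higher in C12 were Stat5b (0.87), Irf1 (1.42), Stat5a (1.65), Ifi35 (1.82), Ifi27l2a (2.20), Oas3 (2.46), Ifitm6 (2.89), Ifitm1 (3.96) and Stat4 (6.13). The values of Oas1g and Stat4 rest on groups with 0 counts. As bounds, Oas1g was at least 6.01-fold lower and Stat4 at least 9.98-fold higher in C12. Oas1a (53.2-fold lower, interval 9.19 to 2138) and Ifi44 (30.7-fold lower, interval 5.15 to 1247) rest on 1 count in C12.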

How the results depend on the processing

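Of 9007 values recomputed under the alternatives, for 616 results, 8170 kept their side of the threshold, 528 lost a call and 297 gained one. Another 12 reversed, which means a change of direction with a call in the main fit, the alternative or both. Values called in neither fit are counted among the 8170 even where their direction changed. Counts of called members moved by over 1.5 times in these cases: among the lines 18 in place of 30 when only they were fitted; ih_STC_BM against MSC 16 in place of 29 when only both were fitted; and MDSC against MSC, 29 in the main test, 15 with MDSC summed, 51 when only both were fitted and 16 to 23 with a library left out. For C12 against ih_CTC the range with a library left out was 10 to 23. For ih_DCTC against ih_BCTC it was 0 to 1, and DESeq2 called 2. With intron share as a covariate, values reversed for Gbp4 (0.28) and Ifitm2 (-0.78) in C12 against MDSC, Ifitm2 in C12 against ih_CTC (-0.69) and ih_BCTC against MSC (0.74), and, in MDSC against MSC, Gbp7 (-1.15), Ifit2 (-2.50), Ifitm2 (1.42) and Oas1g (4.70). Without the line libraries of low intron share, values reversed for Ifi204 in C12 against MDSC (0.48), Irf1 in ih_DCTC against MSC (-0.63), and Ifitm2 (-1.01) and Isg15 (-2.22) in ih_STC_BM against MSC. The cause was not tested. Upper quartile scaling moved the median of all genes from 0.03 to 0.30 in C12, 0.08 to 0.25 in ih_CTC and 0.09 to 0.31 in ih_DCTC against MDSC. No paired analysis was possible because the labels give no replicate numbers. Genes of few counts have the widest intervals.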
